A study of Homo sapiens with 96 samples.

Results

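The cytosolic ribosomal protein genes were taken as the entries of the gene count table named RPL or RPS plus a number, with an A, X, Y or L ending allowed, together with RPSA, RPLP0, RPLP1 and RPLP2. RPS6K kinases, pseudogenes and symbols with a suffix added after _ were left out. The rule used no measured value and found 86 genes of 44659 entries, of which 52 belong to the large and 34 to the small subunit. They were followed in 96 QuantSeq libraries of A375, an established human melanoma line driven by mutated BRAF. QuantSeq primes on the poly(A) tail and counts transcript 3′ ends, so a count does not grow with transcript length. Every culture had first spent 18 h in DMSO or in MAPKi, which is 500 nM vemurafenib (a BRAF inhibitor) plus 500 nM cobimetinib (a MEK inhibitor). It then received vehicle, 100 µg/ml cycloheximide (CHX, a blocker of translation elongation), 25 µM triptolide (T, a blocker of transcription), or both (TCHX, with CHX added 5 min before T). Cytoplasmic RNA was collected at 0, 1, 3 or 5 h, with 3 libraries in each of the 32 groups. All groups come from this 1 line, and nothing in the labels says that the 3 libraries of a group were separate cultures, so p-values cover the spread between libraries, which may be technical.

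Ribosomal proteins of the large (RPL) and small (RPS) subunit assemble with ribosomal RNA in the nucleolus into the particles that translate mRNA. Their mRNAs are abundant and long-lived, and most begin with a cytosine followed by a run of pyrimidines, the 5′ terminal oligopyrimidine (TOP) motif, through which their translation follows growth signalling. Some members have a second, closely related gene (RPL22 and RPL22L1, RPS27 and RPS27L), and proteins such as RPL5 and RPL11 are also known for holding MDM2 away from p53.

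The start of a member transcript is shown for 10 genes on which the results below turn, as 15 bases before and 15 bases from the annotated start (RefSeq, GRCh38.p14, read on the strand of the gene). Capitals mark the first 5 transcribed bases.
RPL22, chr1:6199581-6199610, minus strand: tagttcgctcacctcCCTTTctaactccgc
RPL22L1, chr3:170870181-170870210, minus strand: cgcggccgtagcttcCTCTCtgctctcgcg
RPS27, chr1:153990747-153990776, plus strand: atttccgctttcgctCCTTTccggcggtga
RPS27L, chr15:63157463-63157492, minus strand: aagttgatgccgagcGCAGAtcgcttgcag
RPL26, chr17:8383179-8383208, minus strand: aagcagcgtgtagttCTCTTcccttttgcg
RPL26L1, chr5:172958714-172958743, plus strand: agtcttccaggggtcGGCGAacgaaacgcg
RPL7L1, chr6:42879601-42879630, plus strand: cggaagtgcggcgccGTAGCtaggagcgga
RPL39, chrX:119791616-119791645, minus strand: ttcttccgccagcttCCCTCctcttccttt
RPLP1, chr15:69452803-69452832, plus strand: gtataggcgcgagagCCCCTttcctcagct
RPS6, chr9:19380222-19380251, minus strand: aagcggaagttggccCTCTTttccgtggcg
The motif searched was a C at the start followed by 4 bases that are each C or T, on the gene strand only. At least 1 annotated start held it in 48 of the 69 members with an entry (69.6%), against 7.07% of the 11024 tested genes with an entry. The share was 69.0% in the large and 70.4% in the small subunit. CTCTT was the most frequent pentamer, at the start of 13 members against 0.952% of all tested genes, followed by CCTTT in 9 members against 0.599%. Within the pairs above, RPL22 and RPL22L1 both began with such a run, whereas RPS27L, RPL26L1 and RPL7L1 did not, at the starts annotated here.

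Of the 86 members, 79 had enough counts to be tested (50 large, 29 small), among 14948 genes tested in all. In the 12 vehicle libraries of DMSO-pretreated cells, 49 members had a median above 1000 CPM (the count scaled to a common library size), 23 lay between 100 and 1000, 3 between 10 and 100 and 11 below 10. RPS27A, which encodes ubiquitin fused to a small subunit protein, was the most abundant member, with a lowest value of 7901 CPM, a median of 8496 and a highest of 10209. RPS29 and RPL37A came next with medians of 4768 and 4738 CPM, and their ranges of 2751 to 5069 and 4506 to 5170 overlapped. RPS4Y1, RPS4Y2, RPL10L, RPL3L, RPS9, RPS18 and RPS25 were not tested, and RPS2 and RPL7A were tested at medians of 0.585 and 0.128 CPM. RPS9, RPS18, RPS25, RPS2 and RPL7A encode core ribosomal proteins, and whether reads of these genes were assigned elsewhere was not tested. Entries with such a suffix held 0.00578% of the count of the members and pseudogene entries 0.109%. RPS3A was erratic within groups. It was at 1.65 CPM or less in all but 3 libraries but reached 168 CPM in 1 MAPKi TCHX 5 h library, 46.5 in 1 DMSO T 0 h library and 38.2 in 1 MAPKi TCHX 3 h library (levels on the stable-gene scale explained below).

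The totals of the libraries ran from 2381351 to 12520154 counts, with a median of 7143396. DUSP6, a target of MAPK signalling, had a mean of 342 CPM in the DMSO vehicle libraries and of 2.57 CPM in the MAPKi vehicle libraries (12 each), and MITF, SOX10, S100B and DCT of the melanocyte lineage were detected. Of 12 markers of keratinocytes, fibroblasts, immune and endothelial cells, KRT5, KRT1, DCN, CD3E and PECAM1 were at 0 in all of these libraries. CD68 had means of 3.75 CPM in DMSO and 17.9 CPM in MAPKi cells, LUM of 3.12 and 4.42, KRT14 of 0.107 and 1.70, and the other 4 had means of at most 0.998 CPM. Their part in the results was not tested. PMEL, MLANA and TYR, other markers of that lineage, had means of 1.26, 0.173 and 0.249 CPM in the DMSO vehicle libraries.

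The members moved with the library total inside groups of identical treatment, which bears on every comparison that follows. Over the 96 libraries, the level of RPL30 correlated with the total at r = 0.88 once both were centred on their group means, and RPL23, RPL38, RPL27, RPL19 and RPL34 had r from 0.82 to 0.88. RPL8, RPS28 and RPS15 went the other way, with r from -0.83 to -0.79, whereas RPLP1 (0.21), RPLP0 (0.086) and RPS23 (-0.067) hardly moved. A doubling of the total went with a log2 level higher by 0.69 for RPL30, by 0.64 for RPL34 and by 0.53 for RPS29, whereas the slope was -0.26 for RPL8. Of the 74 members above a mean of 20 CPM, 14 had r over 0.7 and 8 under -0.7, together 29.7%, against 11.1% of the 6651 genes above that mean. The members were not matched with these genes for abundance, and 49 of them had a median above 1000 CPM in the DMSO vehicle libraries. These correlations are a description, since the level and the total come from the same libraries. The standard deviation within groups on the log2 scale was correspondingly unequal, from 0.042 for RPLP1 to 0.39 for RPS7, with a median of 0.12 against 0.17 for all genes. The libraries of the MAPKi T 0 h group, from which decay in MAPKi cells is measured, included the smallest of all and ran from 2381351 to 6559893 counts, and those of DMSO TCHX 3 h from 3525808 to 9804845. All comparisons were therefore also fitted with the log2 total as a covariate, an alternative added after these data were seen.

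**Figure D1:**
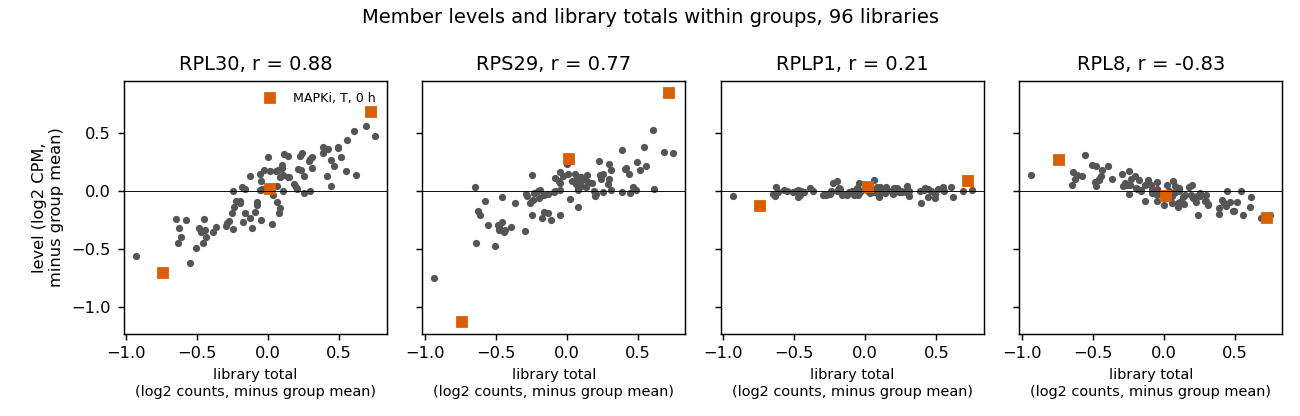
Level of 4 members (log2 CPM, vertical axis) against the library total (log2 counts, horizontal axis), each minus the mean of its group, for 96 libraries. RPL30 (r = 0.88) and RPS29 (0.77) rise with the total, RPLP1 (0.21) lies flat and RPL8 (-0.83) goes down, and the 3 squares, the MAPKi T 0 h libraries, span most of the horizontal range.

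As a share of all counts, the 86 members held between 9.47% and 15.2% of a library, with a median of 12.6%. In DMSO vehicle cells the share was 12.1% ± 0.22 (SD, n = 3) at 0 h and 12.5% ± 0.42 at 5 h. MAPKi vehicle cells started at 12.4% ± 0.37 and stood at 11.6% ± 0.19 at 5 h. Under CHX the share at 5 h was 11.1% ± 0.17 in DMSO and 9.75% ± 0.25 in MAPKi cells, so that the highest MAPKi value (9.94%) lay below the lowest DMSO value (10.9%). Under T it was 14.7% ± 0.31 in DMSO and 14.9% ± 0.31 in MAPKi cells at 5 h, and the values overlapped. TCHX gave 13.4% ± 0.26 and 13.6% ± 0.73. The large subunit held slightly more counts than the small one in every group, with a mean ratio between 1.04 (MAPKi T 0 h) and 1.14 (DMSO T 3 h), and single libraries ran from 0.966 to 1.20. A share is relative to all other transcripts and was given no test. In bulk RNA, a change in the cells present and a change in RNA per cell cannot be told apart.

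**Figure D2:**
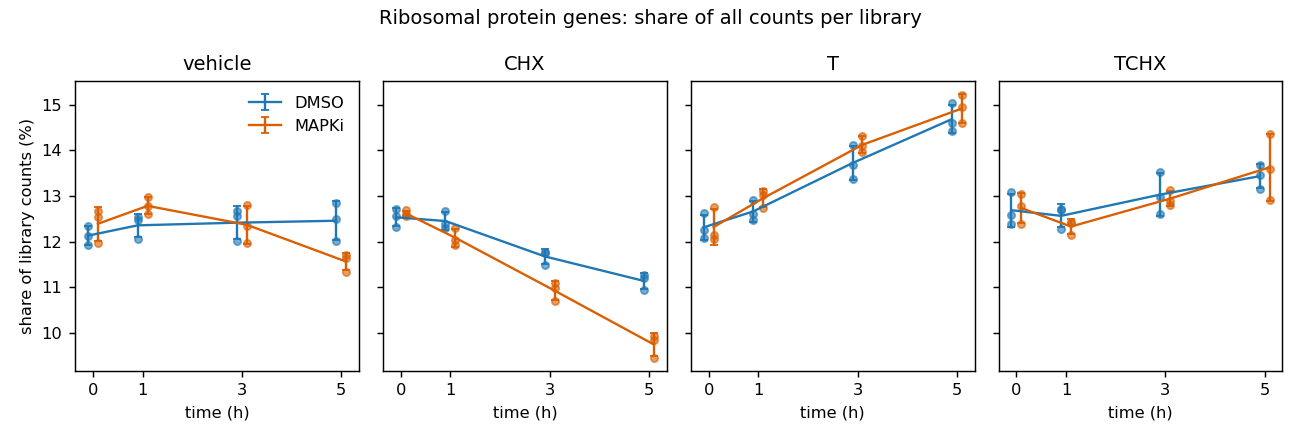
Share of all counts held by the 86 ribosomal protein genes (%, vertical axis) against time (h) in the 4 arms, with points for the 3 libraries of a group and lines for the mean ± SD. At 5 h the CHX arm stands at 11.1% in DMSO and 9.75% in MAPKi cells, and the T arm at 14.7% and 14.9%.

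MAPKi against DMSO was compared in the vehicle arm, averaged over 4 times, to see what the inhibitors alone did to these mRNAs. Of the 79 members, 46 fell and 4 rose (edgeR quasi-likelihood test, Benjamini-Hochberg adjusted p under 0.05), while 69% of all tested genes were called in one direction or the other and 33.1% were called lower. The median change of the members was -0.18 on the log2 scale against 0.053 for all genes, and the medians of the 3 replicate numbers had an SD of 0.010. Scaled by total counts alone, 28 members were lower and 19 higher, and 4090 of all genes were lower and 6433 higher, so the direction of the smaller changes depends on the scale. In the large subunit 33 of 50 fell and 2 rose, and in the small subunit 13 of 29 fell and 2 rose. Most changes were modest, and the extremes were paralogues.

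RPL22L1, the paralogue of RPL22, had the largest fall of the called members. Its DMSO vehicle libraries ran from 630 to 952 CPM with a median of 807, and its MAPKi libraries from 249 to 384 with a median of 349, so the groups did not overlap. The log2 change was -1.22 ± 0.0645 (SE), with an adjusted p of 3.9e-29 by edgeR. RPL22 itself changed by -0.18 ± 0.0405 (adjusted p by edgeR 5.8e-05), and RPL22L1 went from 190% ± 29.8 to 91.9% ± 8.57 of the RPL22 level (SD, n = 12 each), counted as 3′ ends. RPL7L1, a paralogue of RPL7, fell from a median of 240 CPM (194 to 255) to 130 (109 to 156), a log2 change of -0.86 ± 0.0667. The parent RPL7 fell by 0.31 on the log2 scale. RPL39L, a low-abundance paralogue of RPL39, fell from a median of 43.1 CPM (23.9 to 47.9) to 21.0 (17.5 to 27.3) with some overlap, a log2 change of -0.92 ± 0.0717, while RPL39 fell by 0.081. RPL26L1 fell by 0.34 and RPL26 by 0.27. The movement of RPS27L, a paralogue of RPS27 known as a p53 target, was the reverse. It rose from a median of 460 CPM (398 to 518) to 729 (657 to 814), without overlap, by 0.67 ± 0.0491 on the log2 scale (adjusted p by edgeR 3.3e-21), and RPS27 rose by 0.13 ± 0.0429.

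Among the other members, RPS26, which sits at the mRNA exit channel of the small subunit, fell from a median of 319 CPM (245 to 360) to 203 (161 to 230), by 0.65 on the log2 scale. RPL35 fell by 0.50. RPL5, which carries 5S RNA into the ribosome together with RPL11, fell from a median of 1590 CPM (1426 to 1733) to 1154 (1005 to 1251), a log2 change of -0.50 ± 0.037 with no overlap. Its partner RPL11 fell by 0.11. RPL23 and RPL26, also linked to MDM2, fell by 0.25 and 0.27. The stalk proteins, which recruit elongation factors, did not share this movement: RPLP1 rose from a median of 3950 CPM to 4390, by 0.14 ± 0.0222, and RPLP0 and RPLP2 had changes of -0.0032 ± 0.0284 and 0.027 ± 0.0394 that did not pass. RPS6, the target of S6 kinase, fell by 0.28, RPS14 by 0.27, RPS27A by 0.34 and RPL10A by 0.26. RPS3 fell by 0.15, RPL36A by 0.23 and RPL41 by 0.077, of which RPL11, RPL39 and RPL41 turned positive when scaled by total counts. RPL3, RPL10, RPSA, RPS19 and RPS4X did not pass the test, with log2 changes from -0.073 to 0.0076. RPL28 rose by 0.12, although in only 2 of the 3 replicate numbers.

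**Figure D3:**
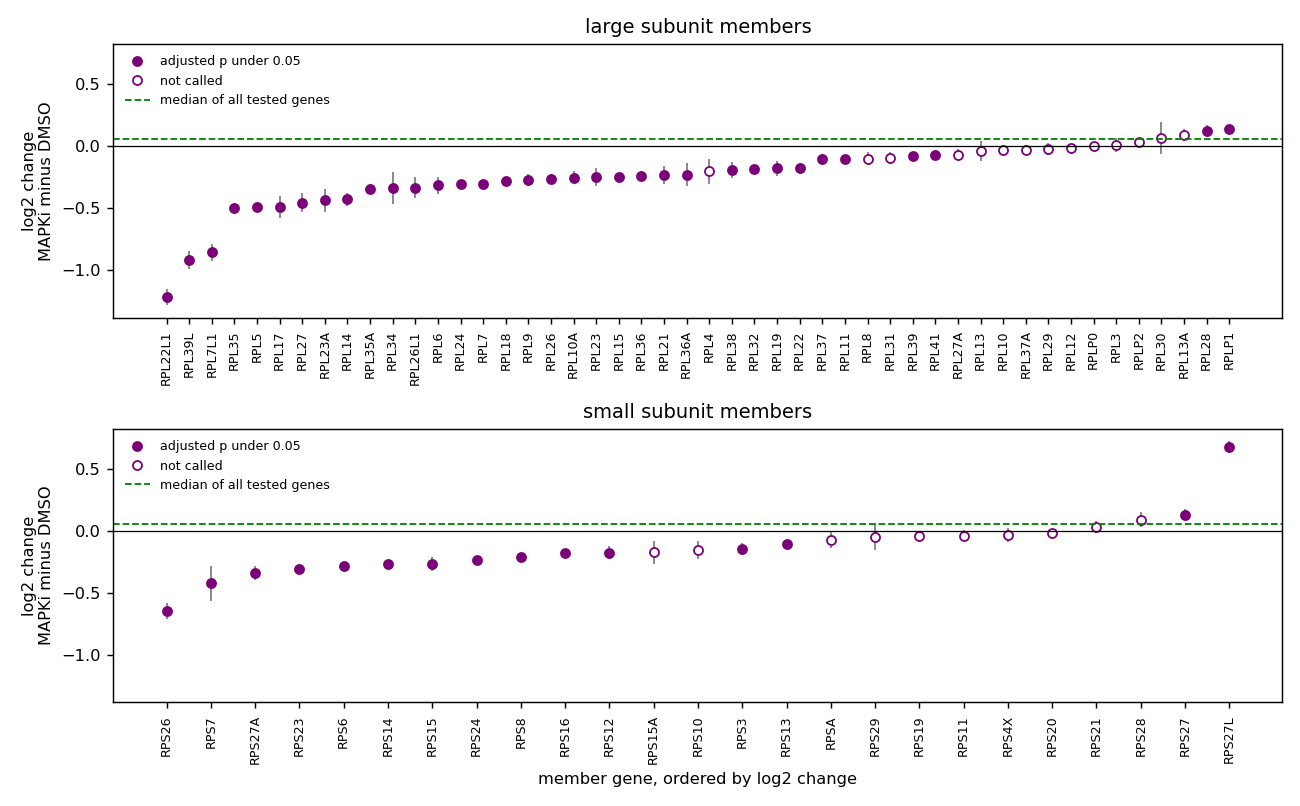
Log2 change, MAPKi minus DMSO in the vehicle arm (vertical axis), of the large (top) and small (bottom) subunit members, with bars for the SE and filled points for adjusted p under 0.05. Members at or near 0 CPM or erratic between libraries (RPS2, RPL7A, RPS3A among them) and a few not reported here are not drawn. RPL22L1 at -1.22 and RPS27L at 0.67 are the ends of the range, and the dashed line is the median of all genes, 0.053.

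The fall of the members was small beside that of the machinery that builds ribosomes. Of 37 listed assembly factors, 36 fell and none rose, with a median of -1.38, among them NOP56 (-1.90 ± 0.0485), a core protein of the methylation particles for ribosomal RNA. Of 12 tested RNA polymerase I genes, 10 fell, with a median of -0.79, and POLR1B, its second largest subunit, had -1.89 ± 0.0554. Of 15 other transcripts known for a TOP start or a role in elongation, 6 fell and 3 rose, with a median of -0.017. Of 4 ribosomal proteins outside the naming rule, FAU, RACK1 and RPL36AL fell. The 44 tested members with a pyrimidine start had a median change of -0.15 and the 19 without had one of -0.26, with ranges that overlapped.

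Cycloheximide against vehicle, averaged over 3 and 5 h, addressed what stopping elongation does to these mRNAs. In DMSO-pretreated cells 18 of 79 members fell and 2 rose, 25.3% called against 31.7% of all tested genes (13.5% lower, 18.3% higher). The median change was -0.063 against 0.0080 for all genes. RPL22L1 rose from a median of 772 CPM (630 to 865) to 1136 (1027 to 1316), without overlap, by 0.60 ± 0.0897 on the log2 scale (adjusted p by edgeR 6.0e-08). RPL3, a large subunit protein at the peptidyl transferase centre, rose from a median of 575 CPM (491 to 646) to 717 (666 to 760), by 0.33 ± 0.0762. RPS27L fell from a median of 462 CPM (421 to 518) to 341 (297 to 376), by 0.45 ± 0.0697, again without overlap. Other falls were those of RPS10 (-0.27), RPS3 (-0.24) and RPS28 (-0.23), and RPS28 also went down as the library total went up. RPLP1 fell by 0.18 with no overlap between the arms, and RPL22, RPL7 and RPS14 fell by 0.20, 0.18 and 0.17. RPL28 and RPL35 fell by 0.17 and 0.16. RPLP0, RPL5, RPL11, RPS6 and RPS19 did not pass, with changes from -0.077 to -0.045. Leaving out the libraries numbered 1 reduced the count from 20 to 4 members.

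In MAPKi-pretreated cells the members as a group were lower under CHX relative to the bulk of genes (TMM scaling). Of 79, 63 fell and none rose, 79.7% against 29.9% of all tested genes, of which 13.9% were called lower and 15.9% higher. At an unadjusted p under 0.05 by edgeR the counts were 67 lower and 0 higher, and DESeq2 called 62 lower and 0 higher. Unadjusted counts, here and below, were made for the members only, with no share of all genes beside them. The median was -0.31 against -0.012 for all genes, and it was -0.30 in the large (40 of 50 fell) and -0.33 in the small subunit (23 of 29 fell). Scaled by total counts the median was -0.21 against 0.078 for all genes. At 5 h the TMM factors were 1.19 to 1.21 under CHX and 1.11 to 1.13 in vehicle. The stable-gene factors used below for T were 0.89 to 0.92 and 1.02 to 1.08. The size of the fall thus depends on the scale. In MAPKi cells at 5 h the member share was 11.6% in vehicle and 9.75% under CHX. The TMM factors, higher under CHX, enlarge that fall, and the stable-gene factors, lower under CHX, shrink it. Whether the members fall at all on the stable-gene scale was not tested. RPL39, at the peptide exit tunnel, fell from a median of 781 CPM (721 to 861) to 578 (487 to 653), without overlap, by 0.48 ± 0.049 (adjusted p by edgeR 4.6e-13). RPS20 fell from a median of 3190 CPM (3022 to 3595) to 2448 (2076 to 2746), by 0.42 ± 0.0377. RPLP1 fell from 4219 CPM (4039 to 4415) to 3240 (2787 to 3531), by 0.41 ± 0.0315, also without overlap. RPL9, RPS27 and RPL17 fell by 0.42, 0.41 and 0.43. RPLP0 fell by 0.30, RPLP2 by 0.38, RPL5 by 0.31, RPL11 by 0.23, RPS6 by 0.32, RPS14 by 0.31, RPS19 by 0.31, RPSA by 0.36 and RPL10 by 0.38, so the values lay close together across roles. Among the paralogues, RPL22L1 (-0.032 ± 0.0904), RPL7L1 (0.0062 ± 0.0944) and RPL39L (0.0010 ± 0.104) did not pass, whereas RPS27L fell by 0.37 and RPL26L1 by 0.35. The 44 members with a pyrimidine start had a median of -0.30 and the 19 without one of -0.33. Of the other transcripts with a TOP start or a role in elongation, 12 of 15 fell, EEF2 by 0.35 and TPT1 by 0.48, whereas 22 of 37 assembly factors and 9 of 12 RNA polymerase I genes rose. In DMSO cells 19 of the 37 and 7 of the 12 rose as well, while of the 15 only 1 fell and 1 rose.

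The difference between the CHX changes in MAPKi and in DMSO cells was tested directly. It was below 0 and passed for 30 of 79 members, and above 0 and passed for none, 38% against 11.2% of all genes tested (6.59% lower, 4.64% higher). At an unadjusted p under 0.05 by edgeR, 43 members were lower and 0 higher, and DESeq2 called 31 lower. With the library total as a covariate the count was 47, and it included all 30. Scaled by total counts it was 7, all lower, with a member median of -0.097 in place of -0.25, and 1558 of all genes were then higher and 490 lower. RPL22L1 had the largest difference of the called members, -0.63 ± 0.13 (adjusted p by edgeR 0.00016). At 5 h of CHX it stood at 319% ± 59.7 of the RPL22 level in DMSO cells and at 98.2% ± 13.3 in MAPKi cells (SD, n = 3 each). RPL3 followed at -0.53 ± 0.11 and RPL26L1 at -0.50 ± 0.17 (adjusted p by edgeR 0.044). The RPL26L1 call was lost when the libraries numbered 1 or 2 were left out, with total counts and with DESeq2 size factors, at an adjusted p by edgeR of up to 0.39. In MAPKi cells RPL3 went from a median of 566 CPM (471 to 646) to 484 (420 to 556), a change of -0.20 whose call was lost without any 1 replicate number (adjusted p by edgeR 0.069 to 0.15) and with total counts. The members with no called difference included RPS3, RPS10, RPS15, RPL7, RPL27A and RPS27L, with values from -0.073 to 0.080. Without the libraries numbered 1 the count was 13, and without those numbered 2 it was 14, in both cases all lower.

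**Figure D4:**
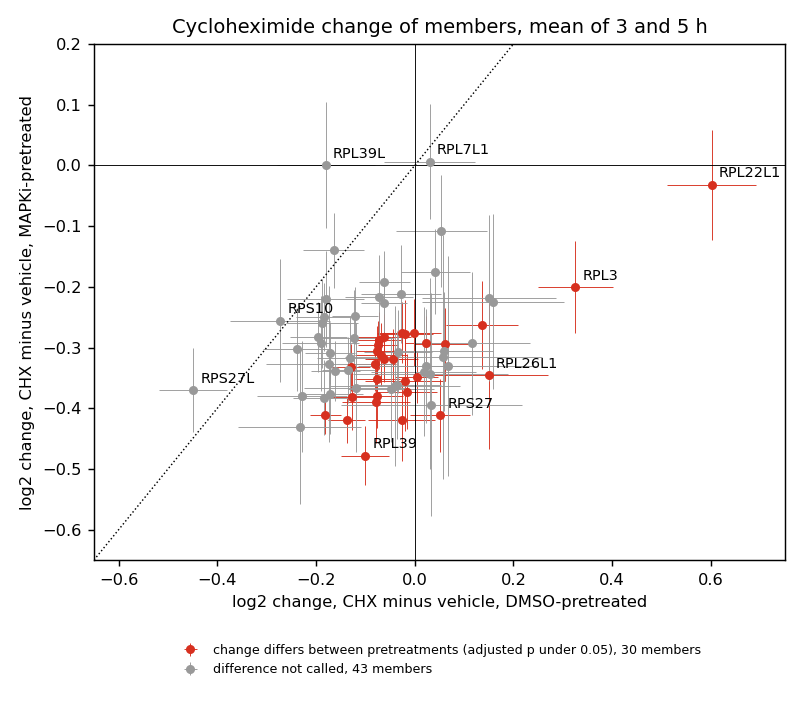
Log2 change under CHX, mean of 3 and 5 h, in MAPKi-pretreated (vertical axis) against DMSO-pretreated cells (horizontal axis), with SE bars and a dotted line of equal change. The 30 members in red have a called difference. RPL22L1 sits at 0.60 and -0.032 and RPL3 at 0.33 and -0.20, and most other members lie near 0 horizontally and near -0.31 vertically.

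At 1 h of CHX alone, which sets 3 libraries against 3, no member was called by edgeR in DMSO cells, in MAPKi cells or for their difference, and of all 14948 genes 12, 11 and 3 were. At an unadjusted p under 0.05 the counts of members were 2, 35 and 26, and the 35 were all lower. With no count of all genes at that threshold, they are not read as an early effect on the members. Without CHX, vehicle cells were compared at 5 h and 0 h as a control for time. No member was called in DMSO cells by edgeR or DESeq2, against 1.06% of all genes (0.582% higher), with 9 at an unadjusted p under 0.05. In MAPKi cells 4 fell, 5.06% against 3.34% of all genes (2.07% lower), with a median of -0.16 over the 79. RPS20 was at 3325, 3555 and 3639 CPM in the 0 h libraries and at 3022, 3030 and 3094 at 5 h, by which it fell 0.20 ± 0.0532 on the log2 scale. RPL18, RPS24 and RPLP0 fell by 0.26, 0.23 and 0.19. The groups did not overlap for any of the 4, but this does not single them out. All 5 h values lay below all 0 h values for 30 of the 79 members. In DMSO cells, with no member called, 16 members were wholly higher and 3 wholly lower. Such counts were not made over all tested genes, so they are no result about the members. DESeq2 called 9 members and the fit with the library total 11, all lower, whereas leaving out any 1 replicate number left none.

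Decay after transcription was stopped was read as T at 5 h against T at 0 h. Because T removes part of the mRNA, levels here are relative to stable genes, picked by a rule adapted from that of the study and stricter than it, since their CPM had to be higher at both 3 and 5 h of T in every replicate and pretreatment. The rule gave 36 genes, of which 6 are members (RPL10A, RPL24, RPL29, RPL35A, RPL39, RPLP1), and the 30 others set the scale. On it the median member kept 97.8% ± 2.5 (SD, n = 3) of its 0 h level in DMSO and 97.3% ± 1.5 in MAPKi cells, against 69.4% ± 0.64 and 62.2% ± 1.5 for the median of all 14948 genes. The large subunit stood at 99.0% ± 2.8 and 101% ± 4.2, and the small at 95.6% ± 3.2 and 91.0% ± 3.3. In DMSO cells 7 members fell and 1 rose, 10.1% against 44% of all genes, and in MAPKi cells 21 fell and 2 rose, 29.1% against 52.6%, of which 51.1% were lower and 1.59% higher. With TMM scaling, which centres the bulk of genes, 68 members were higher and 1 lower in DMSO cells, 70 and 1 in MAPKi cells, while 2061 of all genes were higher and 3170 lower in DMSO and 3135 and 3136 in MAPKi cells, so the sign of a member's change depends on the scale. The excess of the member median over that of all genes was 0.45 in DMSO and 0.60 in MAPKi cells. In the other settings it lay between 0.44 and 0.47 and between 0.56 and 0.64. A change of scale shifts all genes almost alike, so the scalings could not move this excess much and are no test of it.

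**Figure D5:**
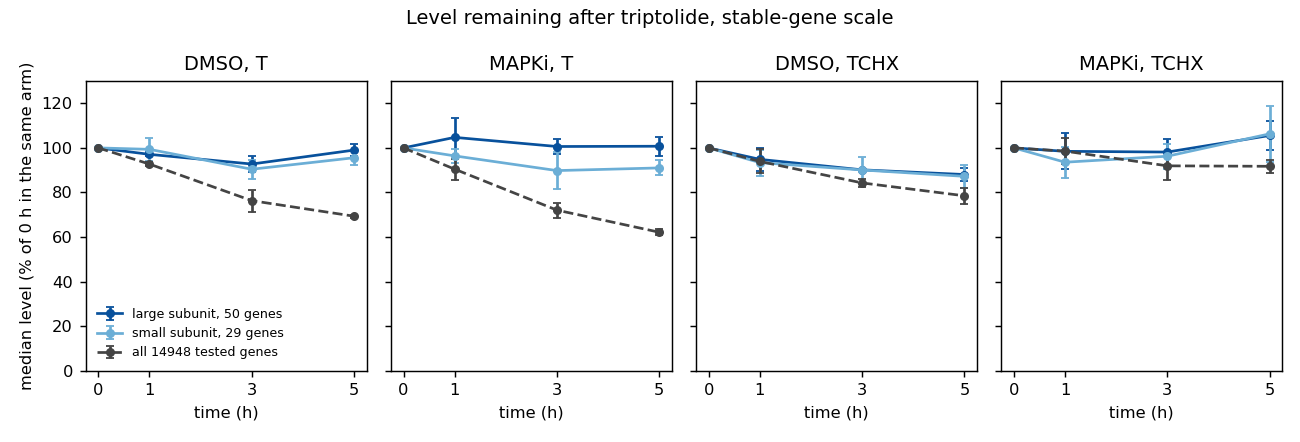
Median level as % of 0 h in the same arm (vertical axis) against time (h) after triptolide without (T) or with (TCHX) cycloheximide, mean ± SD of 3 libraries, on the stable-gene scale. Large subunit members end at 99.0% (DMSO) and 101% (MAPKi) under T and all tested genes at 69.4% and 62.2%.

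RPL7L1 was the member with the clearest loss. Its libraries held 256, 257 and 270 CPM at 0 h and 139, 165 and 190 at 5 h in DMSO cells, a log2 change of -0.66 ± 0.15. In MAPKi cells they held 118, 143 and 226 CPM at 0 h and 57.8, 59.3 and 85.0 at 5 h, a change of -1.25 ± 0.15 (adjusted p by edgeR 5.2e-11, the lowest of the members here). With TMM scaling the DMSO value was -0.19 and did not pass. RPS27L went from 488, 578 and 597 CPM to 405, 435 and 445 in DMSO cells, a change of -0.37 ± 0.10. In MAPKi cells it went from 729, 792 and 1236 CPM to 546, 586 and 590, a change of -0.68 ± 0.10. Neither group overlapped, but both signs turned with TMM scaling. RPL36A fell by 0.52 in DMSO and 0.83 in MAPKi cells and RPL17 by 0.53 and 0.55, both at low levels. RPL17 and RPL36A share exons with read-through genes in the annotation. RPL22L1, so responsive to CHX, had changes of 0.045 ± 0.14 and -0.047 ± 0.14 that did not pass. RPL29 rose by 0.29 in DMSO cells, from 521, 556 and 679 CPM to 687, 709 and 755, and is one of the stable genes. The count of 8 members was 3 without the libraries numbered 1. RPS3 fell by 0.25 there, a call lost with the library total as covariate (adjusted p by edgeR 0.077).

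The call of RPS3A in DMSO cells rests on 1 library, since it was at 0.231, 0.558 and 46.5 CPM at 0 h and at 0, 0.121 and 0.307 at 5 h. In MAPKi cells most calls moved with the library totals described above. The count of 23 was 7 with the total as a covariate (RPL7L1, RPL36A, RPS27L, RPL17, RPS4X, RPL41 and RPS20, all lower and all among the 23), 14 without the libraries numbered 1, 3 without those numbered 2 and 44 without those numbered 3, of which 22 were higher and 22 lower. RPS4X was at 2721, 2824 and 4168 CPM at 0 h and at 2175, 2306 and 2661 at 5 h, and its change went from -0.44 to -0.24 with the covariate. RPS27A and RPL14, at -0.33 and 0.28, lost their calls with it. On the stable-gene scale no member had a called difference in decay between MAPKi and DMSO cells by edgeR or DESeq2, against 3.74% of all genes, and 4 were at an unadjusted p under 0.05. With TMM scaling edgeR called 6, all higher, and without the filter on low counts 3, of which 2 were higher. RPL7L1 had a difference of -0.58 ± 0.21 (adjusted p by edgeR 0.11).

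TCHX against T, averaged over 3 and 5 h on the same stable-gene scale, asked how the mRNAs fared when elongation was stopped as well. In DMSO cells 1 of 79 members was called, 1.27% against 24.7% of all genes, 24.2% of them higher, and it was RPL22L1. Its T libraries ran from 692 to 910 CPM (median 855) and its TCHX libraries from 426 to 862 (median 643), a change of -0.43 ± 0.10. In MAPKi cells RPL22L1 ran from 258 to 378 CPM (median 325) under T and from 145 to 310 (median 227) under TCHX, and fell by 0.50 ± 0.10. On this scale it was the only member to fall in either, and it fell in all settings, by 0.36 to 0.89. In DMSO cells 45 members were called with TMM scaling and 19 with total counts, all lower, and 7 without the filter on low counts, 6 of them lower. Both pairs of groups overlapped. In MAPKi cells 13 members rose, so that 17.7% were called against 41.6% of all genes (41% higher), and the member median of 0.084 lay below the all-gene median of 0.33. RPL39L rose by 0.41, RPS12 by 0.33, RPL7L1 by 0.32, RPS27A by 0.31 and RPS23 by 0.25. For RPS27A, RPS12 and RPS23 the highest value of the compared libraries, 12323, 4844 and 3913 CPM, came from the same MAPKi TCHX 5 h library, the one numbered 3. The count of 14 was 6 without the libraries numbered 2 and 5 without those numbered 3. The RPS3A call (6.69) rests on 2 libraries and turned to -3.17 without the libraries numbered 2. With TMM scaling 62 of the members fell and 1 rose, so here too the direction is set by the scale, and RPL7L1, RPS12, RPS23 and RPS27A changed sign. Assembly factors (33 of 37 rose) and RNA polymerase I genes (11 of 12 rose) moved more than the members, NOP56 by 0.53 and POLR1B by 1.00.

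The difference of the TCHX changes between MAPKi and DMSO cells passed for 1 member, RPL39L, 1.27% against 9.38% of all genes (9.08% higher). It was 0.51 ± 0.15 (adjusted p by edgeR 0.017), with RPL39L at -0.10 ± 0.10 in DMSO and 0.41 ± 0.11 in MAPKi cells. The 6 MAPKi TCHX libraries ran from 19.6 to 29.8 CPM (median 25.9) and the 6 MAPKi T libraries from 15.8 to 22.7 (median 18.9), so the arms overlapped. The call was lost in 8 of the 12 other settings, leaving out any 1 replicate number included, with adjusted p by edgeR up to 0.24 in those 8.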

How the data were processed

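The deposited table holds raw read counts per gene symbol for 96 libraries, which the authors made with 3′ QuantSeq of cytoplasmic RNA. The submitters' processing notes name fastp 0.20.1, HISAT2 2.2.1, HTSeq 0.13.5 and GRCh38.p13. Strand setting and the handling of reads with several matches are not given in the sources used here, so close paralogues, pseudogenes and genes with shared exons (RPL17, RPL36A, RPS10, RPL35 and RPL5 among those described) may have exchanged reads. The number of count columns without a sample was 0. Library totals ran from 2381351 to 12520154 counts, and this depth leaves members below 10 CPM imprecise.

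Counts were fitted in edgeR 4.0.16 (R 4.3.3) by the quasi-likelihood test on all libraries and 32 group means, after its default filter on low counts, with Benjamini-Hochberg adjustment over all 14948 genes and a threshold of 0.05. MAPKi, CHX and vehicle-time comparisons used TMM scaling. T and TCHX comparisons used median-of-ratios factors over stable genes, by a rule adapted from the study's, which asks for a rise at 3 or 5 h: above 0.2 CPM in vehicle at 0 h, at least 1.1 times higher in CPM at 3 and 5 h of T in every replicate and pretreatment, with the initial level above 10% of the later one. They were thus picked on these libraries, and 6 members among them were left out of the factors. Log2 changes are model estimates and levels are normalised CPM. The fit was tested on simulated data. DESeq2 1.42.0, other scalings, no filter, each replicate left out, single times, a replicate block and the library total as covariate were tried as alternatives.

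Members, pathway lists and the rule that decides which genes are named were all chosen with earlier results of these data known. The rule lists for every comparison stalk proteins, p53-linked members, RPL3, RPL10, RPL10A, RPL41, RPSA, RPS3, RPS6, RPS14, RPS19, RPS27A and paralogue pairs. The text gives only part of that list in most comparisons. For T, TCHX and vehicle time it gives mostly members with a call. Per comparison, the 5 largest rises and 5 largest falls (3 for differences between pretreatments) with the same sign in all 3 replicate numbers were added. RPL28 and the members listed for their library-total correlation or missing difference were chosen after their values were seen. Start sequences came from RefSeq. A few genes that the rule would name are not reported here.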

Additional observations from a re-analysis of the deposited data

Results flagged for a closer look

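The response to CHX differed between MAPKi and DMSO cells by the test of the difference itself (edgeR quasi-likelihood interaction term, Benjamini-Hochberg adjusted) for 30 of 79 members, each lower in MAPKi cells. Single genes picked out in this way were RPL22L1 at -0.63 (lower in 3 of 3 replicate numbers), RPL3 at -0.53 (3 of 3) and RPL26L1 at -0.50 (3 of 3), all on the log2 scale. The RPL26L1 call was lost without the libraries numbered 1 or 2, with total counts and with DESeq2 size factors. The number of members called was 7 with total counts. For TCHX against T the difference between pretreatments passed for RPL39L at 0.51 (higher in 3 of 3 replicate numbers). The same sign in all 3 replicate numbers was a condition of picking these genes, so it adds no support. With 3 libraries in each group, no search for single outlying libraries was made.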

How the results depend on the processing

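Over all alternatives, the changes of named members kept their call, and if called their direction, in 1183 instances and gained a call in 18. The 18 include calls of opposite sign, as for RPLP0 under MAPKi with total counts (0.14). Called changes reversed in 31 and lost the call in the rest, and sign changes of uncalled members were not counted. For a named member, reversed means here and below a change of sign, whether or not the alternative value was itself called. The excess of the member median over the all-gene median moved by less than the replicate spread in 127 instances and by more in 9. None reversed, and settings that change only the scale move this excess little by construction. The limits are those of scale and depth. With TMM scaling, the called counts were 69 for T in DMSO (median 0.45), 71 in MAPKi (0.68) and 6 for their difference (0.24), and 45, 63 (median -0.30) and 3 (-0.098) for TCHX in DMSO, in MAPKi and for their difference. There T in DMSO cells reversed for RPS27L (0.10) and RPS3 (0.23), T in MAPKi cells for RPL17 (0.16), RPL41 (0.48), RPS20 (0.49), RPS27A (0.39), RPS27L (0.048) and RPS4X (0.28), and TCHX in MAPKi cells for RPL7L1 (-0.069), RPS12 (-0.058), RPS23 (-0.14) and RPS27A (-0.076). Scaled by total counts, the counts were 33 and 7 for CHX in DMSO and the CHX difference, 1 for MAPKi vehicle time, 48 (46 higher, median 0.25) and 54 (51 higher, median 0.32) for T, and 19, 37 (median -0.15) and 1 (median -0.022) for TCHX, while the median T difference was 0.073. MAPKi in vehicle reversed for RPL11 (0.035), RPL39 (0.063) and RPL41 (0.066), and T for RPS3 (0.030) in DMSO and RPL41 (0.12), RPS20 (0.13) and RPS27A (0.031) in MAPKi cells. Stable genes with the members kept in gave 36 for T in MAPKi, and 2 with a median of 0.033 for TCHX in DMSO cells. These settings differ from the main fit in the scale only, and why the scales disagree was not tested.

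At 0 h alone, 26 members were called for MAPKi. At 1 h alone, 0 members were called in the 3 CHX comparisons, and CHX reversed in DMSO cells for RPL22L1 (-0.0088), RPL7 (0.060), RPS10 (0.10), RPS14 (0.025), RPS28 (0.11) and RPS3 (0.078), in MAPKi cells for RPL23 (0.12) and RPL26L1 (0.24), and in the difference for RPL22L1 (0.15) and RPL26L1 (0.36). At 5 h alone the TCHX difference had 2. DESeq2 called 9 for MAPKi vehicle time and 2 for the TCHX difference. The fit to the compared groups only gave 1, 0, 14 and 6 for MAPKi vehicle time, the TCHX difference, T in DMSO and T in MAPKi. No filter gave 6 for DMSO vehicle time, 7 for TCHX in DMSO, 4 for the TCHX difference and 3 for the T difference. The covariate gave 47, 11 and 7 for the CHX difference, MAPKi vehicle time and T in MAPKi. Vehicle at 0 h as the initial level gave 4 (RPS3A at 1.19) and 11 for T. The cause was not tested.

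The replicate block gave 7 for MAPKi vehicle time and changed no other count by over 1.5 times. For MAPKi in vehicle, deviations of same-numbered libraries correlated at a median of 0.20 against -0.097 for other pairs, with 55 of 84 pairs over 0.1. The labels do not say what a number marks, and whether it marks a shared batch was not settled. Leaving out 1 replicate number gave 42 to 47 for MAPKi, 4 to 15, 48 to 53 and 13 to 25 for CHX in DMSO, in MAPKi and their difference, 3 to 8 and 3 to 44 for T, 1 to 2, 5 to 19 and 0 for TCHX and its difference, and 0 for MAPKi vehicle time. The TCHX median in DMSO cells ran from -0.0166 to 0.050, with 0.0168 between them, and RPS3A in MAPKi cells from -3.17 to 9.0.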
